A study of Mus musculus with 8 samples.

Results

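The genes described here are the DNA replication and S phase genes, a list of 45 genes set by their work at the replication fork and at the entry into S phase. Each gene was read from 1 probe set, the one with the highest mean intensity over the 8 arrays. A probe set was matched to 44 of the 45 genes, among 12370 genes and 22626 probe sets measured in all, and Chaf1a, a subunit of the chromatin assembly factor, was not analysed here. They fall into the MCM helicase, origin recognition and licensing, origin firing, the sliding clamp and its loader, single-strand binding, polymerases and primase, Okazaki fragment joining, nucleotide supply, G1/S regulators, and chromatin assembly and maintenance.

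Replication starts when the origin recognition complex, Cdc6 and Cdt1 load the MCM helicase onto DNA in G1, and when kinases then recruit Cdc45 and the GINS complex so that the helicase can unwind the double strand. Primase and polymerase alpha lay down primers, the clamp loader places PCNA, and polymerases delta and epsilon copy the strands while RPA covers single-stranded DNA. In the B lineage, large pre-BII cells signalling through the pre-B cell receptor divide and then become small, resting cells that rearrange the light chain genes, and many of these S phase genes are transcribed under control of the E2F factors.

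RNA was measured on MOE430A GeneChips in B220+ CD25+ pre-BII cells from the bone marrow of 7 week old Bl6 mice that were wild type, Aiolos-/-, OBF-1-/- or lacked both factors (Aiolos-/-/OBF-1-/-), with 2 arrays per genotype. Aiolos is a zinc finger factor of the Ikaros family and OBF-1 is a B cell coactivator that works with the Oct proteins. The sources used here name no Cre or tissue-limited allele. The study's methods describe sorted cells from pools of 8 mice, whereas the labels give bone marrow, name neither sorting nor pooling, and for the mutants speak of a single mouse. The sorted cells held large and small pre-BII cells together, so fewer cycling cells and less RNA per cell cannot be told apart in these values. The paper reports from cell size that most pre-BII cells were small and non-dividing whatever the genotype. It adds DNA content, in data not shown, to the same effect.

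The arrays were alike in median intensity, between 66.8 and 69.4 units, and arrays of 1 genotype correlated at 0.9961 to 0.9965. The 3′ to 5′ ratio of the Gapdh control, a check on RNA integrity, was 1.49 and 1.55 on the double-mutant arrays. On the other arrays it was 1.61 to 1.99. That of the actin control ran from 1.71 to 2.14, with the double mutant inside this range. The part of RNA integrity in the values was not tested. The gene for OBF-1, Pou2af1, read 2434 to 2842 units on the arrays of the genotypes that keep it and 170.1 to 272.9 units on those of the genotypes that lack it, while no probe set was matched to the Aiolos gene Ikzf3. Genes of the sorted stage were present, Cd79a at 7079 to 9365 units and Il2ra, which encodes CD25, at 396.2 to 702.6 units. Their levels were not even across genotypes. At a limma adjusted p under 0.05, 3 of 9 such genes were higher in the double mutant than in wild type (Il2ra, Rag2 and Vpreb1). Another 3 were lower, Vpreb3 3.29-fold, Cd79b 1.75-fold and Ebf1 1.42-fold, and Vpreb3 was 5.13-fold lower in OBF-1-/-. Granulocyte genes were present as well, with S100a9 at 5943 to 7344 units and Mpo at 816.4 to 1547 units, and no T cell marker exceeded 137.6 units. Fluidics station 2 handled the wild type and OBF-1-/- arrays, and station 1 handled the Aiolos-/- and double-mutant arrays. Station and Aiolos genotype therefore cannot be told apart in Aiolos-/- against wild type, in the double mutant against wild type, or in the double mutant against OBF-1-/-. Comparing OBF-1-/- with wild type and the double mutant with Aiolos-/- stays within 1 station. Within each station, however, modules 1 and 2 handled the arrays with OBF-1, and modules 3 and 4 those without it. Module and OBF-1 genotype therefore cannot be told apart in either comparison or in their average. The comparisons share arrays, so their values for 1 gene are not independent of each other.

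The DNA before the start sites of these genes is shown first, so that the genes that changed can be set against the E2F words counted there. RefSeq windows of the GRCm38.p6 build, 250 bases before to 50 bases after the transcription start, were at hand for 37 of the 44 genes. An E2F word, meaning TTTCCCGC, TTTGGCGC, TTTCGCGC or TTTGCCGC on either strand, stood in the window of 13 of the 37 genes, or 35.1%, against 4.07% of 9883 measured genes with a window. A further list of other replication genes had one in 37.1% of its 35 genes with a window. Counted by window, 28.9% of 45 windows of the list held one, against 3.38% of 12560. Words of opposite strands can overlap each other, as they do in Mcm6. The octamer ATGCAAAT, to which Oct proteins bind, stood in none of the 37, against 1.85% of all measured genes, and TGGGAA, a core word of the Ikaros family, stood in 37.8% against 27.3%.

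Below are the 250 bases upstream of Mcm6, which hold the most E2F words of the list, and of 3 genes whose RNA changed in the double mutant, Orc6, Cdc45 and Pold1, each 5′ to 3′ on the strand of its gene, with E2F words in capitals. The windows are chr1:128359706-128359955 (minus strand) for Mcm6, chr8:85299382-85299631 (plus strand) for Orc6, chr16:18811973-18812222 (minus strand) for Cdc45 and chr7:44548816-44549065 (minus strand) for Pold1.
Mcm6: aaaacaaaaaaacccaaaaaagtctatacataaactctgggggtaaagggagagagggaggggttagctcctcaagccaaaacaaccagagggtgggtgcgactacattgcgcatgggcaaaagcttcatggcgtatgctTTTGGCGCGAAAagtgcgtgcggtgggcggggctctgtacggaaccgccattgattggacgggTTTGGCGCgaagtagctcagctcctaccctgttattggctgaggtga
Orc6: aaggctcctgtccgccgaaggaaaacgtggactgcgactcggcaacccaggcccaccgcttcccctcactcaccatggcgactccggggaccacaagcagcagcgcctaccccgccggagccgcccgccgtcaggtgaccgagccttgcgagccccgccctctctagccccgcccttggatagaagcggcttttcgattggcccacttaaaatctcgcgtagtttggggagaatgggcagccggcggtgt
Cdc45: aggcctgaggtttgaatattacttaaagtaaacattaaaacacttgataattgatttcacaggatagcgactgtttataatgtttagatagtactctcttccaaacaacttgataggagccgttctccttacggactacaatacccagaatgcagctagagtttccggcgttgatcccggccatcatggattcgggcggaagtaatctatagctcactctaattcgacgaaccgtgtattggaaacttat
Pold1: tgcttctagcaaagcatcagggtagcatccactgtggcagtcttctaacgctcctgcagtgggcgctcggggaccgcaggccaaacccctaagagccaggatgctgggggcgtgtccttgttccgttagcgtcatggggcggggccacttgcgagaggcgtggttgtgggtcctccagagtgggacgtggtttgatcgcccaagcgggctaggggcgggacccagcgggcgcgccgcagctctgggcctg
The Mcm6 window held 3 E2F words, and those of Orc6, Cdc45 and Pold1 held none before the start. Of the 7 genes of the list that changed in any comparison, 6 had a window, and an E2F word was found only after the start, in Cdt1 beginning 32 bases and in Pold1 39 bases from the first transcribed base. A word in a window is a match of letters and was not tested for binding.

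Loss of both factors moved 7 of the 44 genes. Pold1, the catalytic subunit of polymerase delta, was higher, and Orc6, Cdt1, Cdc45, Rfc2, Rpa3 and Prim1 were lower than in wild type at an adjusted p (limma, Benjamini-Hochberg over all 22626 probe sets) under 0.05. The falls lay between 0.38 and 0.57 on the log2 scale and the rise was 0.64. Those 7 genes were 15.9% of the list, against 8.57% of all probe sets called in this comparison, and the 6 lower genes were 13.6% of the list, against 4.28% of all probe sets called lower. The 1 higher gene stands against 4.29% called higher. Of the log2 fold changes, 37 of 44 were below 0, or 84.1% against 47.9% of all probe sets, with a median of -0.16 for the list and 0.0083 for all probe sets. In 24 genes both double-mutant arrays lay below both wild type arrays and in 3 genes above, where 23.3% and 25.9% of all probe sets did so.

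**Figure D1:**
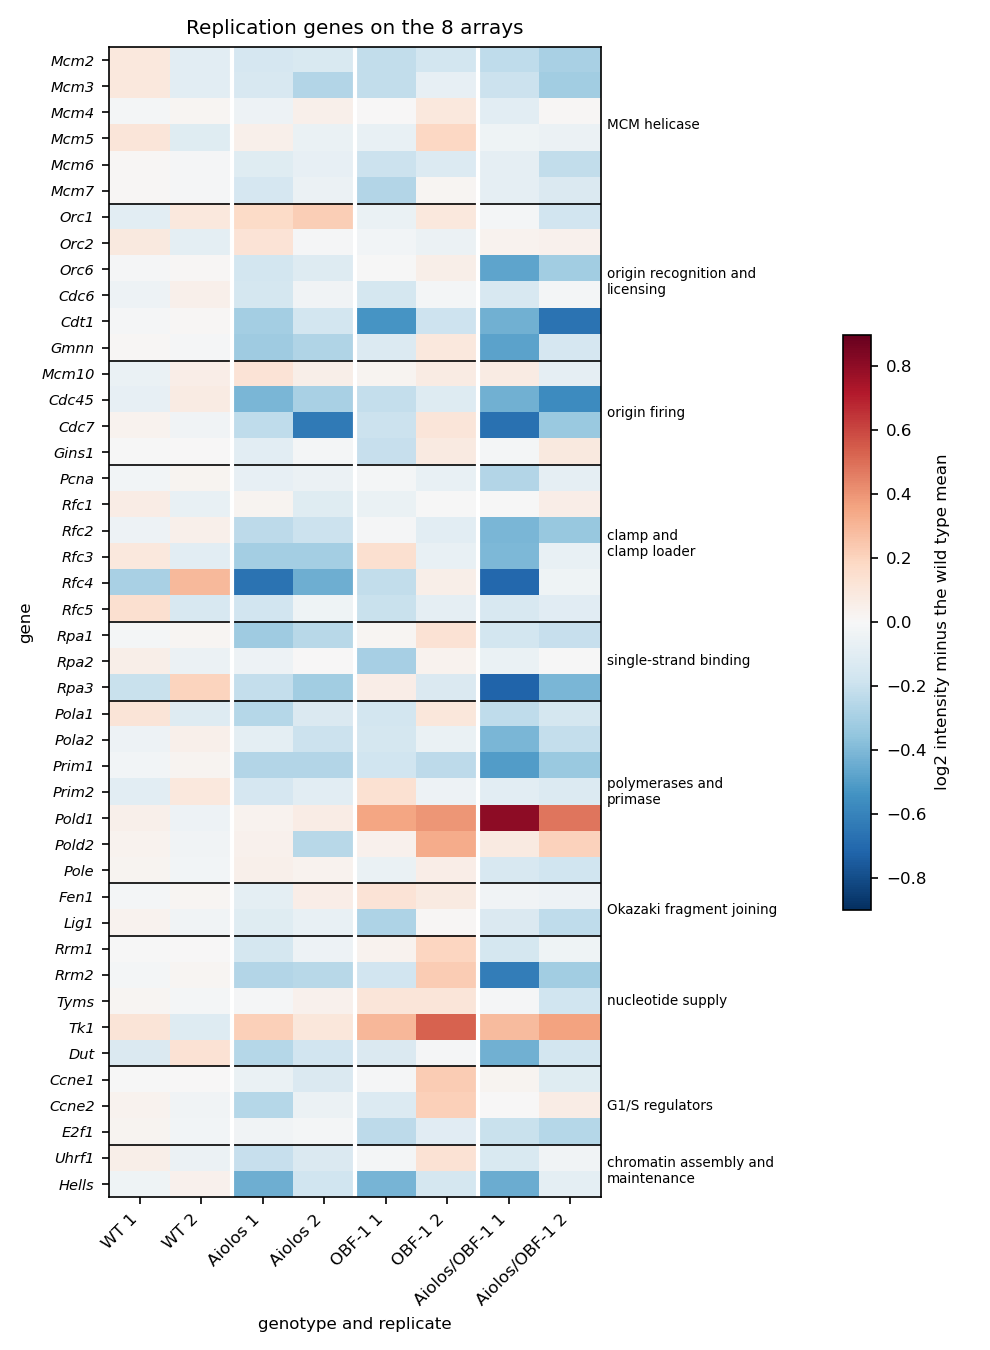
The 44 replication and S phase genes (rows, by role) on the 8 arrays (columns), coloured by log2 intensity minus the wild type mean of the gene. Pold1 is the reddest row of the double mutant and is red in OBF-1-/- as well, while Orc6, Cdt1, Cdc45, Rfc2, Rpa3 and Prim1 turn blue in the double mutant.

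These changes were small. The 95% intervals of 35 of the 44 genes lay within 1.5-fold of wild type in either direction, and all 44 lay within 2-fold. The count of lower genes rested on few arrays: it was 2 without wild type replicate 1, 0 without wild type replicate 2 and 2 without double-mutant replicate 1, whereas Pold1 was called higher without any 1 of the 8 arrays. Markers of other cells and stages moved in the same comparison. Of 9 granulocyte and monocyte markers 6 were higher and none was below 0 (median 0.45), and of 5 erythroid markers Klf1 (0.69) and Ermap (0.70) were higher and none was below 0 (median 0.33). Among 5 early stage genes Il7r (0.88) and Dntt (0.59) were higher, while Kit (0.14), Cd34 (0.15) and Flt3 (-0.05) did not pass. Ms4a1, a gene of later B cells that the paper lists as reported to depend on OBF-1, was 3.99-fold lower. Fcer2a (-0.54), also a gene of later B cells, was lower, while Cr2 (-0.19) did not pass. Their part in the values of the list was not tested.

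**Figure D2:**
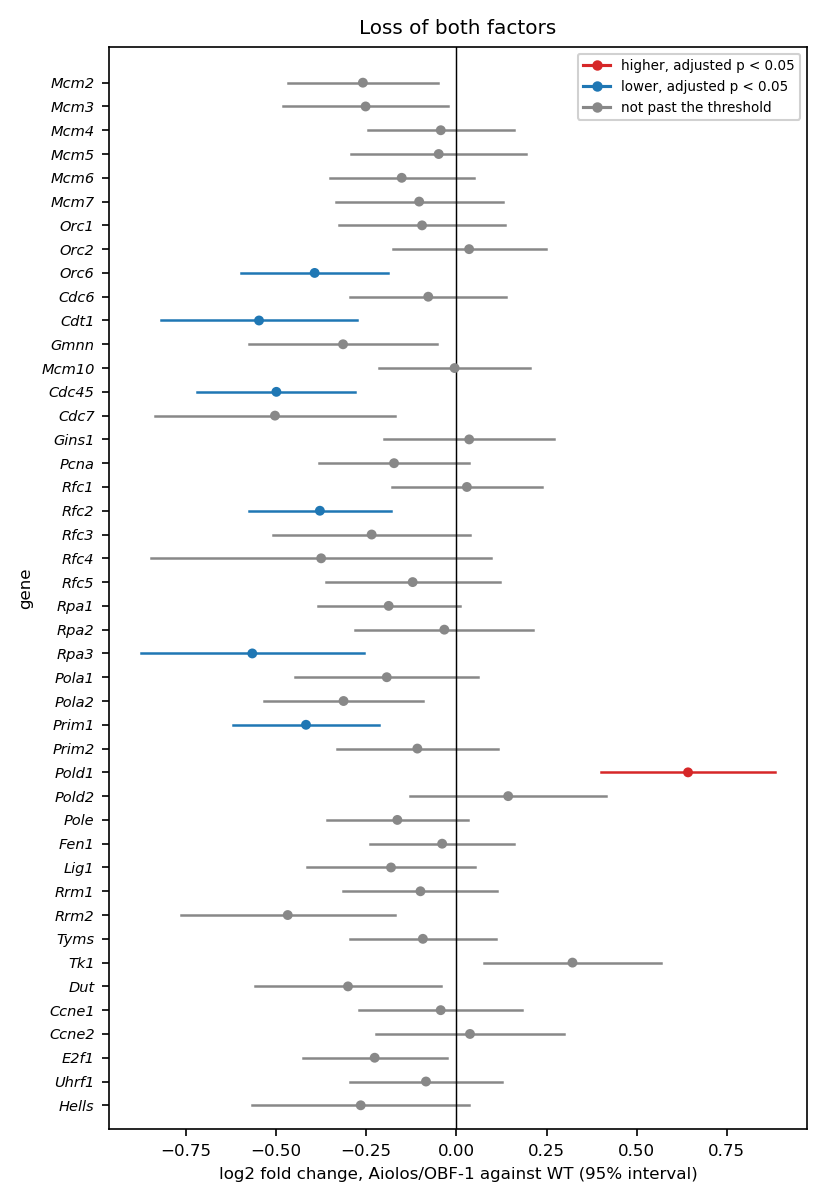
Log2 fold change of each gene in the double mutant against wild type (points) with its 95% interval from limma (lines), 2 arrays per genotype. Points left of 0 are lower in the double mutant, 37 of 44, and the coloured points are the 1 higher and 6 lower genes with an adjusted p under 0.05.

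Among the licensing genes, Orc6 and Cdt1 fell. Orc6, the smallest subunit of the origin recognition complex, read 108.3 and 109.5 units in wild type, 108.6 and 112.8 in OBF-1-/-, 96.89 and 100.6 in Aiolos-/- and 78.34 and 87.84 in the double mutant. Only the double-mutant arrays lay below every other array, and wild type overlapped with OBF-1-/-. The difference from wild type was -0.39 (SE 0.0932, adjusted p = 0.0221). Under the alternative processings described below it ran from -0.48 to -0.31, and the call was not kept under all of them. Orc6 was also the 1 gene of the list that fell when Aiolos was lost in cells already without OBF-1 (log2 fold change -0.42, SE 0.0932, adjusted p = 0.0391), a call that was lost without wild type replicate 1 or 2, Aiolos-/- replicate 1 or 2, OBF-1-/- replicate 1 or 2 or double-mutant replicate 1, with adjusted p between 0.0584 and 0.206.

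Cdt1, which brings the MCM helicase to origins, had 519.5 and 526.1 units in wild type, 361.3 and 458.5 in OBF-1-/-, 423.5 and 467.0 in Aiolos-/- and 387.3 and 330.6 in the double mutant. All 6 mutant arrays were below both wild type arrays, and the double mutant overlapped with OBF-1-/-. The double mutant differed from wild type by -0.55 (SE 0.124, adjusted p = 0.0176), while the single mutants, at -0.36 for OBF-1-/- and -0.23 for Aiolos-/-, did not pass the test. The double-mutant value ran from -0.66 to -0.21 under the alternative processings, and its call was not kept under all of them. A second Cdt1 probe set gave -0.27 (adjusted p = 0.0914) in the double mutant, and the dimmest, with a mean of 10.7 units, gave 0.19. Geminin (Gmnn), the inhibitor of Cdt1, read 171.6 and 168.3 units in wild type, 156.3 and 181.8 in OBF-1-/-, 136.3 and 140.8 in Aiolos-/- and 121.8 and 153.4 in the double mutant. Its 4 arrays without Aiolos were below the 4 with Aiolos, but the double mutant did not pass against wild type (log2 fold change -0.31, SE 0.119, adjusted p = 0.143). The remaining licensing genes Orc1, Orc2 and Cdc6, the loader ATPase, had double-mutant values of -0.10, 0.04 and -0.08, none of which passed.

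Of the origin firing genes, Cdc45 fell. Cdc45, a part of the active CMG helicase, stood at 122.2 and 135.6 units in wild type, at 110.7 and 119.0 in OBF-1-/-, at 96.82 and 105.1 in Aiolos-/- and at 95.45 and 86.94 in the double mutant. The genotypes followed in that order without overlap. Its double-mutant change of -0.50 (SE 0.10, adjusted p = 0.00904) had the lowest adjusted p of the 6 genes that fell, and it was lost without wild type replicate 2 (adjusted p = 0.0866) or double-mutant replicate 2 (0.0611). In the Aiolos-/- cells the same probe set gave -0.35 (adjusted p = 0.0995), the lowest adjusted p of the list in that comparison, and neighbouring genotypes in the order did not differ in any tested pair, with double mutant minus Aiolos-/- at -0.15 (adjusted p = 0.507) and OBF-1-/- minus wild type at -0.17 (adjusted p = 0.532). Mcm10, which stabilises the helicase, had 137.4 and 149.9 units in wild type, 146.2 and 150.9 in OBF-1-/-, 156.0 and 148.7 in Aiolos-/- and 150.8 and 135.7 in the double mutant, with wild type and double mutant overlapping. The kinase Cdc7, a dim probe set with 32.56 to 55.99 units, gave -0.50 in the double mutant with a wider error (SE 0.153, adjusted p = 0.0665), and Gins1, a GINS subunit, gave 0.04.

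No subunit of the MCM helicase, the ring that unwinds DNA, passed the test in any comparison. All 6 double-mutant values were below 0, from -0.26 for Mcm2 and -0.25 for Mcm3 to -0.04 for Mcm4. Mcm7 read 2505 and 2472 units in wild type, 2074 and 2524 in OBF-1-/-, 2242 and 2402 in Aiolos-/- and 2357 and 2278 in the double mutant. In OBF-1-/- its replicates lay on either side of every other array, and the double-mutant change was -0.10 (SE 0.106, adjusted p = 0.652). The dimmest Mcm7 probe set gave -0.37 (adjusted p = 0.0279) in the double mutant. Both this probe set and the one read above are of a type that may bind several transcripts. Mcm6 had 504.7 and 499.1 units in wild type, 439.1 and 460.5 in OBF-1-/-, 466.2 and 477.7 in Aiolos-/- and 474.2 and 430.6 in the double mutant. Every mutant array of Mcm6 was below wild type, by -0.15 in the double mutant (SE 0.0914, adjusted p = 0.385).

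In the clamp group Rfc2 fell and PCNA did not pass. Rfc2, a small subunit of the clamp loader, had 483.9 and 513.3 units in wild type, 495.8 and 467.6 in OBF-1-/-, 423.5 and 435.9 in Aiolos-/- and 374.3 and 392.9 in the double mutant. The double mutant was lowest, Aiolos-/- came next, and wild type overlapped with OBF-1-/-. Its change against wild type was -0.38 (SE 0.0903, adjusted p = 0.0229), lost without either wild type or either double-mutant array (adjusted p = 0.0514 to 0.141). Pcna, the sliding clamp that tethers the polymerases, read 2211 and 2296 units in wild type, 2222 and 2148 in OBF-1-/-, 2140 and 2168 in Aiolos-/- and 1876 and 2131 in the double mutant. Both double-mutant arrays of Pcna were below all others, the second of them by a few units, and the change of -0.17 (SE 0.0946) had an adjusted p of 0.331. The other loader subunits gave 0.03 for Rfc1, -0.23 for Rfc3, -0.37 for Rfc4 and -0.12 for Rfc5, none past the test. Rfc4 had the largest gap between the wild type replicates, 71.81 and 107.8 units.

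Of the RPA trimer, which coats single-stranded DNA, the smallest subunit Rpa3 fell. Rpa3 read 168.6 and 221.6 units in wild type, 201.7 and 176.3 in OBF-1-/-, 166.6 and 155.5 in Aiolos-/- and 117.5 and 145.3 in the double mutant. The double mutant lay below all other arrays, by -0.57 against wild type (SE 0.141, adjusted p = 0.0285), and the call was lost without wild type replicate 2 (adjusted p = 0.225) or double-mutant replicate 1 (0.217). Rpa1, the large subunit, had 942.8 and 964.9 units in wild type, 964.2 and 1042 in OBF-1-/-, 765.1 and 804.0 in Aiolos-/- and 850.5 and 824.7 in the double mutant. Its 4 arrays without Aiolos lay below the 4 with Aiolos, which is also the split between the stations, and neither Aiolos-/- (-0.28, adjusted p = 0.131) nor the double mutant (-0.19, adjusted p = 0.262) passed. Rpa2 gave -0.03.

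**Figure D3:**
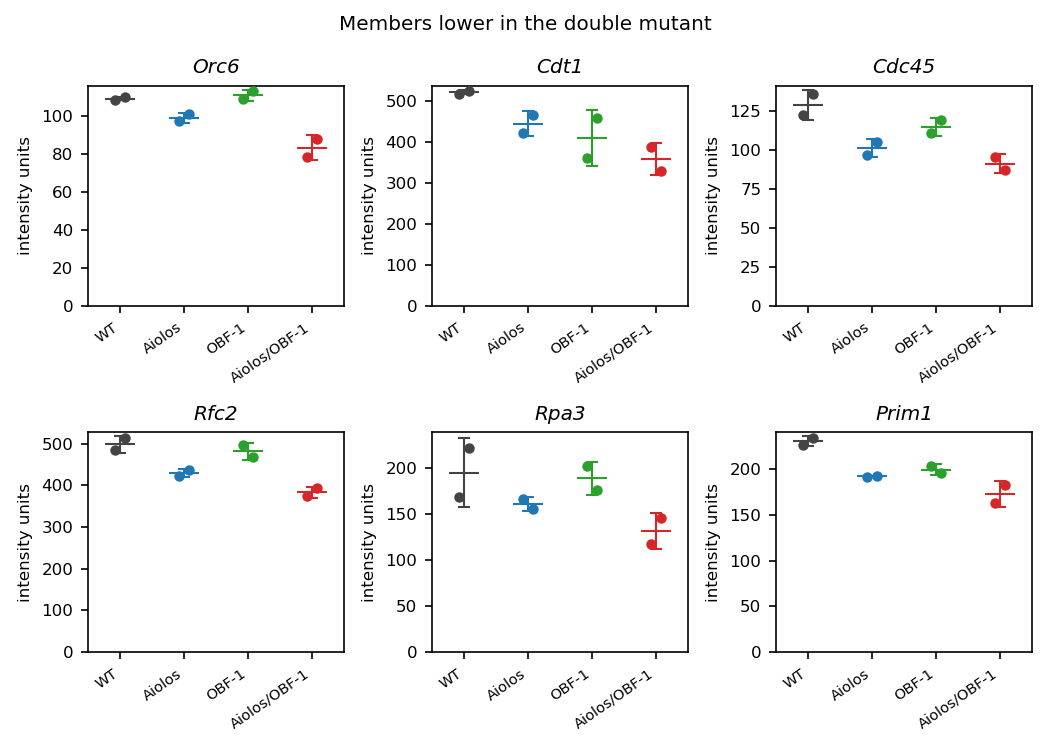
Intensity of the 6 genes that were lower in the double mutant, by genotype: points are arrays, horizontal lines the mean of 2 arrays and bars 1 SD, with axes from 0. Both double-mutant points lie below both wild type points in all 6 panels, and Cdt1 is the panel in which the double mutant overlaps with OBF-1-/-.

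The polymerase group held the 1 rise. Pold1, the subunit of polymerase delta that copies and proofreads DNA, read 928.2 and 868.1 units in wild type, 916.2 and 941.9 in Aiolos-/-, 1150 and 1180 in OBF-1-/- and 1567 and 1253 in the double mutant. The 4 arrays without OBF-1 lay above the 4 with it, double mutant above OBF-1-/-, and wild type overlapped with Aiolos-/-. The double mutant was 1.56-fold above wild type (log2 fold change 0.64, SE 0.111, adjusted p = 0.00345) and 0.59 above Aiolos-/- on the log2 scale (SE 0.111, adjusted p = 0.0121), a call lost without Aiolos-/- replicate 1 or 2 or double-mutant replicate 1 (adjusted p = 0.0766 to 0.0827). OBF-1-/- alone was 0.38 above wild type, which did not pass (SE 0.111, adjusted p = 0.133). Averaged over both comparisons within a station, loss of OBF-1 gave 0.48 (SE 0.0783, adjusted p = 0.00306). A second Pold1 probe set, of a type that may bind several transcripts, gave 0.44 for that average (adjusted p = 0.00377) and 0.59 against Aiolos-/- (adjusted p = 0.00844), but 0.27 against wild type (adjusted p = 0.143), with Aiolos-/- at -0.31.

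Of the other subunits of polymerase delta, Pold4 fell with the loss of OBF-1 and neither Pold2 nor Pold3 passed against wild type. Pold2, the regulatory subunit, read 198.2 and 188.8 units in wild type, 198.5 and 162.6 in Aiolos-/-, 198.7 and 244.3 in OBF-1-/- and 204.8 and 223.0 in the double mutant, a change of 0.14 against wild type (SE 0.124, adjusted p = 0.576). Pold4, the small accessory subunit, which is not on the list of 45, had 665.4 and 605.2 units in wild type, 581.6 and 611.7 in Aiolos-/-, 365.3 and 393.8 in OBF-1-/- and 382.7 and 377.3 in the double mutant. It fell by 0.74 on the log2 scale in OBF-1-/- (SE 0.0938, adjusted p = 0.00118) and likewise by 0.74 when both factors were missing (adjusted p = 0.000411), and it read -0.09 in Aiolos-/- (adjusted p = 0.638). The OBF-1-/- and double-mutant arrays of Pold4 overlapped, so its level followed OBF-1 genotype, and with it module, with or without Aiolos. Its direction was opposite to that of Pold1. Pold3 had 237.7 to 250.3 units in the genotypes with Aiolos and 216.2 to 260.5 units in those without it.

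**Figure D4:**
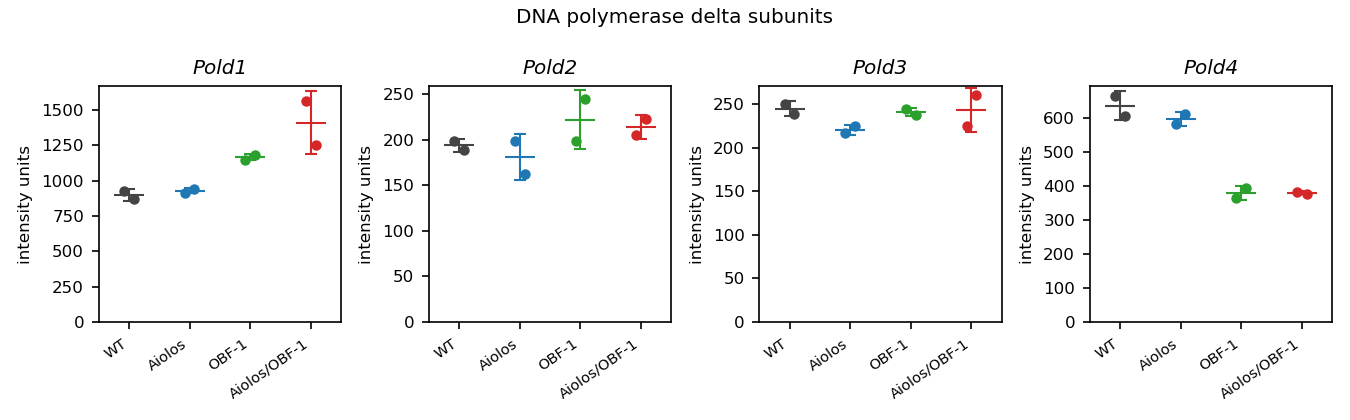
Intensity of the 4 subunits of DNA polymerase delta by genotype: points are arrays, horizontal lines the mean of 2 arrays and bars 1 SD, each axis starting at 0. Pold1 is higher and Pold4 lower on the 4 arrays without OBF-1, and neither Pold2 nor Pold3 was called in the double mutant against wild type.

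Prim1, the catalytic subunit of primase, fell. It had 226.5 and 234.5 units in wild type, 203.6 and 195.3 in OBF-1-/-, 191.7 and 192.2 in Aiolos-/- and 163.0 and 182.8 in the double mutant. The genotypes again followed in that order without overlap. The double-mutant change was -0.42 (SE 0.0932, adjusted p = 0.0165), with -0.46 (adjusted p = 0.013) from a second probe set, and it was lost without wild type replicate 1 or 2 or double-mutant replicate 1 (adjusted p = 0.064 to 0.127). Pola2, the accessory subunit of polymerase alpha, had 221.9 and 237.4 units in wild type, 206.0 and 219.7 in OBF-1-/-, 216.0 and 200.4 in Aiolos-/- and 172.3 and 198.2 in the double mutant. It was lowest on the double-mutant arrays without passing the test (log2 fold change -0.31, SE 0.101, adjusted p = 0.0855). Pola1, Prim2 and Pole, the catalytic subunit of polymerase epsilon, gave -0.19, -0.11 and -0.16.

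The genes that join Okazaki fragments did not pass. Fen1, the flap nuclease, had 1015 and 1041 units in wild type, 1122 and 1089 in OBF-1-/-, 966.0 and 1069 in Aiolos-/- and 1006 and 994.6 in the double mutant. Lig1, the ligase that seals the fragments, had 308.0 and 295.1 units in wild type, 249.0 and 304.0 in OBF-1-/-, 280.0 and 288.4 in Aiolos-/- and 275.4 and 256.9 in the double mutant. Fen1 and Lig1 were below wild type on both double-mutant arrays, by -0.04 and -0.18.

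Nucleotide supply showed values on both sides of wild type, with no gene past the test. Rrm2, the S phase subunit of ribonucleotide reductase, read 650.5 and 667.6 units in wild type, 586.1 and 772.4 in OBF-1-/-, 550.2 and 553.8 in Aiolos-/- and 427.2 and 531.8 in the double mutant. The double-mutant arrays were the lowest, at -0.47 (SE 0.136, adjusted p = 0.055), and the OBF-1-/- replicates spanned both wild type arrays. Rrm1, the large subunit, had 377.6 and 378.2 units in wild type, 386.7 and 432.0 in OBF-1-/-, 338.4 and 365.6 in Aiolos-/- and 338.0 and 368.2 in the double mutant, a change of -0.10. Thymidine kinase Tk1, a salvage enzyme, had the highest double-mutant log2 fold change of this group (0.32, adjusted p = 0.108) and read 201.4 and 172.2 units in wild type, 229.4 and 268.8 in OBF-1-/-, 216.2 and 199.6 in Aiolos-/- and 226.6 and 239.2 in the double mutant. Its 4 arrays without OBF-1 were above the 4 with it, and neither OBF-1-/- against wild type (0.415, SE 0.112, adjusted p = 0.097) nor the within-station average (0.29, adjusted p = 0.0601) passed. Dut, the dUTPase, gave -0.30 in the double mutant, and Tyms, thymidylate synthase, was near the floor of the array at 14.28 to 17.41 units.

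None of the G1/S regulators or chromatin genes passed. E2f1, a transcription factor of S phase entry, had 134.4 and 129.3 units in wild type, 111.7 and 123.0 in OBF-1-/-, 129.2 and 130.2 in Aiolos-/- and 115.0 and 110.5 in the double mutant. Its arrays without OBF-1 lay below those with it, with a within-station average of -0.19 (SE 0.0647, adjusted p = 0.155). Cyclin E1 (Ccne1), the partner of Cdk2 at S phase entry, read 84.88 and 84.99 units in wild type, 84.24 and 99.36 in OBF-1-/-, 81.34 and 77.74 in Aiolos-/- and 86.46 and 78.58 in the double mutant, and wild type and double mutant overlapped. Uhrf1, which guides maintenance methylation behind the fork, had 361.2 and 337.1 units in wild type, 344.9 and 382.2 in OBF-1-/-, 302.5 and 318.2 in Aiolos-/- and 316.8 and 342.0 in the double mutant. Hells, a chromatin remodeller, had 74.07 and 77.92 units in wild type, 56.74 and 68.17 in OBF-1-/-, 56.14 and 67.06 in Aiolos-/- and 55.80 and 71.64 in the double mutant. All 6 mutant arrays of Hells were below wild type, at -0.31 in Aiolos-/-, -0.29 in OBF-1-/- and -0.27 in the double mutant, and no comparison passed. Ccne2 was dim, at 16.01 to 22.18 units.

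Loss of Aiolos alone called no gene of the list, against 1.84% of all probe sets in either direction, 0.831% higher and 1.01% lower. At an unadjusted p under 0.05 limma gave 9 lower genes and 0 higher, where 8.28% of all probe sets were lower and 10.6% higher. The direction was uneven: 36 of the 44 log2 fold changes, or 81.8%, were below 0, against 42.7% of all probe sets, and the median was -0.11 against 0.0298. In 28 genes both Aiolos-/- arrays were below both wild type arrays and in 2 above, where 21.8% and 30.9% of all probe sets were. The values ran from -0.55 for Rfc4 (SE 0.215, adjusted p = 0.2) to 0.20 for Orc1, and the intervals of 41 genes lay within 1.5-fold. All 9 granulocyte and monocyte markers (median 0.25) and all 5 erythroid markers (median 0.37) were above 0 here, with none called, and their part was not tested.

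Loss of OBF-1 alone called no gene of the list either, against 2.09% of all probe sets in either direction, 0.946% higher and 1.14% lower, with 2 higher and 2 lower at an unadjusted p under 0.05, where 7.42% and 5.9% of all probe sets were. Its signs were mixed, 25 below 0 (56.8%, against 44.3% of all probe sets) and 19 above, with a median of -0.03 against 0.0204 for all probe sets. The OBF-1-/- arrays were below wild type without overlap in 8 genes and above in 6, against 18.8% and 25.8% of all probe sets. The extremes were Cdt1 at -0.36 and Tk1 at 0.415, and 40 intervals lay within 1.5-fold. The median was -0.09 without OBF-1-/- replicate 2 and 0.04 without replicate 1, so its sign rested on which of these arrays was kept. All 9 granulocyte and monocyte markers (median 0.28) and all 5 erythroid markers (median 0.32) were above 0 here as well. Ltf (0.49), Camp (0.55), Lyz2 (0.48), Klf1 (0.89) and Ermap (0.89) were called higher, and the part of these markers was not tested.

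When OBF-1 was lost in cells already without Aiolos, Pold1 was the 1 gene that rose and none fell, against 1.75% and 1.19% of all probe sets and 2.95% in either direction, with 1 higher and 5 lower at an unadjusted p under 0.05, where 7.98% and 8.19% of all probe sets were. The double mutant was below Aiolos-/- without overlap in 14 genes and above in 5 (27.5% and 20.7% of all probe sets), with a median of -0.03. When Aiolos was lost in cells already without OBF-1, Orc6 was the 1 gene that fell and none rose, against 1.03% and 1.61% of all probe sets and 2.63% in either direction, with 1 higher and 10 lower at an unadjusted p under 0.05, where 7.6% and 7.44% of all probe sets were. Here 19 genes were below without overlap and 3 above (24.7% and 19.4% of all probe sets). The median was -0.13 and ran from -0.19 without OBF-1-/- replicate 1 to -0.04 without OBF-1-/- replicate 2.

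Averaged within stations, loss of OBF-1 raised Pold1 and lowered Cdt1 (log2 fold change -0.34, SE 0.0878, adjusted p = 0.0492), against 2.72% of all probe sets called higher, 2.29% called lower and 5.02% in either direction. The Cdt1 call was lost without wild type replicate 1 or 2, OBF-1-/- replicate 1, Aiolos-/- replicate 1 or 2 or double-mutant replicate 2 (adjusted p = 0.0751 to 0.181). A test of whether both losses together differed from the sum of the single losses on the log2 scale called none of the 44 genes, against 0.186% of all probe sets in either direction, 0.155% higher and 0.0309% lower. No gene had an unadjusted p under 0.05 there, where 4.74% of all probe sets were higher and 7.09% lower, and the values ran from -0.31 for Orc1 to 0.33 for Hells, with a lowest adjusted p of 0.438. For Pold1 the value was 0.22 (SE 0.157, adjusted p = 0.599).

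A further list of 50 replication genes, of which 41 were measured, was counted beside the 44. In the double mutant 1 of the 41 was higher and 3 were lower than wild type, with a median of -0.12. Of all probe sets, 4.29% were called higher and 4.28% lower there. The higher gene of the 41 was Rbl2, the retinoblastoma relative p130 (log2 fold change 0.54, SE 0.136, adjusted p = 0.0295). The lower ones were Pold4, the fork protection gene Tipin (-0.37, SE 0.0955, adjusted p = 0.0326) and Shmt1, an enzyme of folate metabolism (-0.41, SE 0.0959, adjusted p = 0.0204). Under the alternative processings the Shmt1 value ran from -0.47 to -0.11, and only the Pold4 call was kept under all of them. Aiolos-/- called none of the 41, against 0.831% of all probe sets higher and 1.01% lower. At an unadjusted p under 0.05 limma gave 2 higher and 8 lower, where 10.6% and 8.28% of all probe sets were. OBF-1-/- called Pold4 lower, where 1.14% of all probe sets were called lower and 0.946% higher. Against Aiolos-/- the double mutant was lower in Pold4 and Shmt1 (-0.45, adjusted p = 0.0257), where 1.19% of all probe sets were called lower. Against OBF-1-/- the double mutant was lower in cyclin A2 (Ccna2, -0.44, SE 0.101, adjusted p = 0.0423). There 1.03% of all probe sets were called lower. The Ccna2 value ran from -0.55 to -0.33 under the alternative processings, and its call was not kept under all of them. In the within-station average of OBF-1 loss Rbl2 was higher, and Pold4 and Shmt1 were lower. Of all probe sets, 2.72% were called higher and 2.29% lower in that average.

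Mitosis genes, another part of the cell cycle, gave other signs with OBF-1 loss. Of 25 listed, 24 were measured. In OBF-1-/- 22 of the 24 were above 0 and 2 below, where 44.3% of all probe sets were below 0. The median was 0.19, and the mitotic kinase Plk1 was higher (0.66, SE 0.115, adjusted p = 0.0113), where 0.946% of all probe sets were called higher. In Aiolos-/- 23 of 24 were below 0, against 42.7% of all probe sets, with a median of -0.27. The kinase Aurkb was lower (-0.45, SE 0.101, adjusted p = 0.0466), where 1.01% of all probe sets were called lower. In the double mutant the median was -0.18, with 20 of 24 below 0, against 47.9% of all probe sets. The centromere histone Cenpa (-0.51, adjusted p = 0.0171) and the kinesin Kif23 (-0.78, adjusted p = 0.00462) were lower. In this comparison 4.28% of all probe sets were called lower. Against OBF-1-/- all 24 double-mutant values were below 0, where 54.4% of all probe sets were, with a median of -0.42. Cenpa (-0.67), Plk1 (-0.51), Ccnb2 (-0.45) and Aurkb (-0.45) were lower there, where 1.03% of all probe sets were called lower. Against Aiolos-/- the median was 0.15 and none was called. The within-station average had a median of 0.16, with Plk1 higher (0.46) and Kif23 lower (-0.395). In that average 2.72% of all probe sets were called higher and 2.29% lower. The medians of the S phase list were -0.03 in OBF-1-/-, -0.11 in Aiolos-/- and -0.16 in the double mutant. They were -0.13 for the double mutant against OBF-1-/-, -0.03 against Aiolos-/- and -0.05 for the within-station average. The difference between the lists was not tested, and no mitosis call was kept under every alternative processing.

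**Figure D5:**
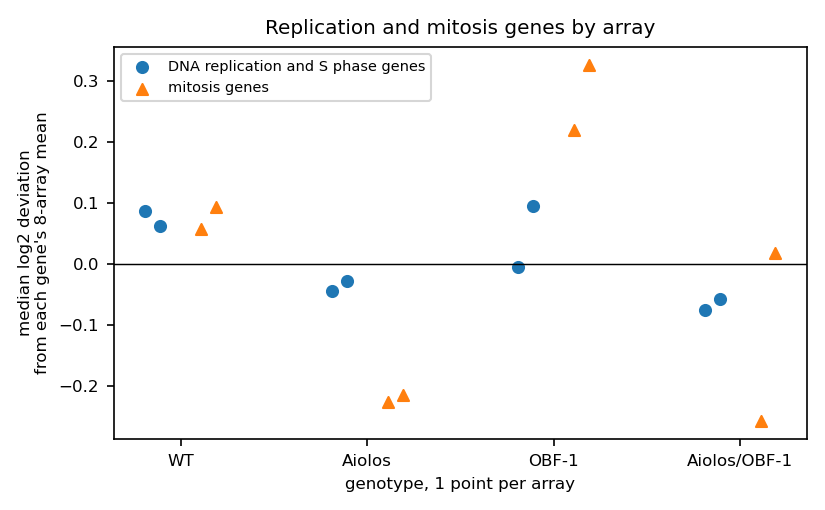
Median deviation of the 44 S phase genes (circles) and the 24 mitosis genes (triangles) on each array, as log2 intensity minus the mean of each gene over the 8 arrays. The circles stay within 0.1 of 0, above it in wild type and below it in Aiolos-/- and the double mutant, while the triangles are highest on both OBF-1-/- arrays.

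By array, the median deviation of the 44 genes from their own means was 0.09 and 0.06 in wild type, -0.0049 and 0.10 in OBF-1-/-, -0.04 and -0.03 in Aiolos-/- and -0.08 and -0.06 in the double mutant. The OBF-1-/- replicates lay on either side of both wild type arrays, and OBF-1-/- replicate 2 held the highest value of 16 of the 44 genes. That array also had the highest summed intensity of the 9 granulocyte and monocyte markers (24704 units, against 18276 to 22547 on the others) and of the 5 erythroid markers (778.6, against 445.4 to 652.8). The part of such cells in the S phase values was not tested. The lowest value of 25 of the 44 genes was on a double-mutant array, 15 on replicate 1 and 10 on replicate 2.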

How the data were processed

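The authors deposited 1 intensity value per probe set and array, made with RMA (background correction, quantile normalization and probe summary) on a linear scale with no version named. They ran 8 MOE430A GeneChips. The instrument settings were read for the fluidics station and its module, and for the chip lot, which was not used. Of 22690 probe sets 64 controls were left out. A symbol table named 20380 probe sets with 1 gene, 691 with several and 1555 with none, and names of 20352 were matched to current symbols. For each gene the probe set with the highest mean over the 8 arrays was read. Those read for Mcm3, Mcm7, Rfc4, Fen1 and Rrm2 are of a type that may bind several transcripts. Of the 44 genes 11 stayed under 100 units in every genotype.

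The log2 of the deposited intensities was fitted in R 4.3.3 with limma 3.58.1 (lmFit and eBayes), 1 mean per genotype over all 8 arrays, with 7.69 prior and 4 residual degrees of freedom. A gene counted as changed at a Benjamini-Hochberg adjusted p under 0.05 over 22626 probe sets. Genes named with values on every array are those called in any comparison and the 2 of highest mean in each role, with others given by value or range. From the further lists up to 4 called genes per comparison are named. Tk1, Pold2, Pold3 and the Cdt1, Mcm7, Pold1 and Prim1 second probe sets were described outside that rule, after their values were seen. The genes, lists and promoter words were chosen with earlier results of these data known. Alternatives were another normalization, another moderation of variances, an intensity filter, the replicate number as a block, only the compared genotypes, the mean of a gene's probe sets, and leaving out each array. Same-numbered arrays did not pair: their deviations correlated between -0.0875 and 0.1034. The number of arrays limits the precision.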

Additional observations from a re-analysis of the deposited data

How the results depend on the processing

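No gene called and named turned its direction under any alternative: of their values under the alternatives, 350 stayed past the threshold and 155 no longer passed. Without moderation of variances every call among the 44 genes was lost: 0 higher and 0 lower in the double mutant against wild type, 0 higher against Aiolos-/-, 0 lower against OBF-1-/-, and 0 higher and 0 lower in the within-station average of OBF-1 loss. In the double mutant against OBF-1-/- the lower count was 2 with the intensity filter and 2 with the mean of all probe sets (Rfc2 added in each), and 0 with only the compared genotypes. The within-station average had 2 higher genes with the intensity filter, with trend and robust moderation and with the mean of all probe sets, Tk1 added each time, and 0 lower genes with quantile normalization. With the replicate number as a block, 1 gene was lower in Aiolos-/- (Rfc4), 2 were lower in the double mutant against OBF-1-/- and 0 in the within-station average, while no other count of calls moved by over 1.5 times. The median in Aiolos-/- was -0.15 with centring, and that of the interaction -0.0395 with quantile normalization. Leaving out 1 array at a time, the medians ran from -0.15 to -0.0940 in Aiolos-/-, -0.0932 to 0.0423 in OBF-1-/-, -0.19 to -0.0385 against OBF-1-/-, -0.0734 to 0.0668 for the interaction and -0.0772 to -0.0002 for the within-station average. The counts ran from 0 to 7 lower in the double mutant against wild type, 0 to 1 higher against Aiolos-/-, 0 to 1 lower against OBF-1-/-, and 1 to 2 higher and 0 to 1 lower in the within-station average. The cause of these changes was not tested. Only the compared genotypes could not be run for the interaction and the average, which use all 4. With 2 arrays per genotype the limit is their number, and dim genes such as Orc1, with a mean of 12.9 units, lie near the background of the array.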

Other observations

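Pold1 lies on chromosome 7, 656 bases from Spib, which encodes an Ets factor of B cells. Spib was looked at after the values of Pold1 were seen. It read 5375 and 4996 units in wild type, 4660 and 4594 in OBF-1-/-, 4750 and 5102 in Aiolos-/- and 4216 and 4185 in the double mutant. The double mutant was below all other arrays, in the direction opposite to Pold1, and its change against wild type did not pass the test (log2 fold change -0.30, SE 0.0906, adjusted p = 0.0625). The 5 other measured neighbours looked at, Napsa (23629 bases away, -0.05), Emc10 (36219 bases, 0.20), Myh14 (56987 bases, 0.05), Josd2 (61085 bases, 0.09) and Aspdh (64992 bases, 0.03), did not pass in the double mutant against wild type, with adjusted p from 0.31 to 0.897.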
